A study of Mus musculus with 4 samples.

Results

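A set of pro-apoptotic genes of the mitochondrial pathway was followed in T8 leukemia cells after IRF4 re-expression, made up of 10 effector and BH3-only genes of the BCL2 family among 55359 gene identifiers counted. They were *Bax*, *Bak1* and *Bok*, the 3 effectors, and *Bcl2l11*, *Bbc3*, *Pmaip1*, *Bid*, *Bad*, *Bmf* and *Bik*, 7 BH3-only genes. They were taken by name, each symbol matched 1 identifier, and the rule uses no measured value, though earlier results of these data were known. With IRF4-RV, *Bmf*, *Bcl2l11* and *Pmaip1* rose, *Bok*, *Bid* and *Bbc3* fell, *Bax*, *Bak1* and *Bad* did not pass the test, and *Bik* was too low to be tested.

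T8 is a cell line grown out of the tumor of a single *Irf4*-/- mouse with B-cell progenitor leukemia, and each library carries this genotype. The cells were transduced either with EV-RV, a retrovirus coding for GFP alone, or with IRF4-RV, which codes for GFP and IRF4, and viable cells were collected for bulk RNAseq a day later. Each group had 2 libraries, described as biological replicates. In the labels, the protocol text speaks of T11, a line from another tumor, while titles and tissue name T8, and whether GFP+ cells were sorted before RNA extraction is not given in the sources used here. A value is therefore an average over the cells harvested, and fewer cells with a transcript cannot be told apart from less transcript per cell.

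Proteins of the BCL2 family decide whether the outer mitochondrial membrane is opened. BAX and BAK, when activated, form pores through which cytochrome c leaves for the cytosol, where it assembles the apoptosome and starts the caspase cascade. Pro-survival members such as BCL2, BCL-XL and MCL1 hold them in check, and BH3-only proteins, which respond to different forms of stress, bind the pro-survival members or the effectors themselves. In B-cell development the BH3-only protein BIM, encoded by *Bcl2l11*, removes cells that lack survival signals or recognize self.

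The libraries held between 31230223 and 37817752 counts. The floor below which no level was read was 3 counts in a library, or 0.0793 to 0.0961 CPM when scaled by library size alone. All other CPM values are counts scaled for library size with TMM factors. The floor covers counting error only. *Irf4*, the transduced gene, had 8070 and 7600 counts under EV-RV against 95578 and 90693 counts under IRF4-RV. The EV-RV libraries thus held 241.7 and 240.9 CPM of *Irf4* although the cells are *Irf4*-/- and EV-RV carries no IRF4. The counts are per gene and do not show whether these reads fall inside or outside the deleted part, and in the IRF4-RV libraries they do not separate vector from locus. Mitochondrial transcripts took 1.98% and 2.53% of the counts under EV-RV and 3.09% and 2.76% under IRF4-RV, and ribosomal protein genes 12.8% and 13.6% against 13.9% and 14.7%, and the part of either in the members' values was not tested. Of 10 markers of pro and pre-B cells, 9 were measured at levels that allowed a test, among them *Cd79a*, *Cd79b*, *Pax5*, *Ebf1* and *Il7r*, while *Rag1* had at most 1 count in any library. Their sum was 3623 and 3790 CPM under EV-RV and 2717 and 2693 CPM under IRF4-RV, lower mainly through *Vpreb1* and *Igll1* (log2 fold changes of -1.49 and -1.30) while *Blnk* was at 1.04, and the part of this in the members' values was not tested. Markers of granulocytes summed to at most 6 counts in a library, and 7 of the 8 had at most 3 counts in each. Of 9 macrophage markers, 6 had at most 3 counts in each library, and the sum rose from 49 and 47 to 289 and 274 counts, of which *Mrc1* held 260 and 230. The sum of 10 T and NK cell markers was 64 to 90 counts, and *Cd8a* and *Ncr1* were at 0. The sum of 5 erythroid markers was 164 to 235 counts. Markers of stromal cells, on which the line had first been grown, differed between replicates: the sum over 8 genes was 47.5 and 89.3 CPM under EV-RV and 47.0 and 221.0 CPM under IRF4-RV, and *Dcn* and *Lum* had at most 2 counts in any library. IRF4-RV replicate 2 thus stood apart in stromal transcripts, and the 6 calls named above were also made without it.

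For 8 of the 10 genes a RefSeq start site on GRCm38.p6 was at hand, and for 5 of the 6 that changed the sequence before it is shown, since the members moved in opposite directions and their upstream regions can be compared directly. Each runs 5′ to 3′ and covers up to 250 bases before the RefSeq start nearest to the annotated gene start, without bases annotated as exon. Capitals mark GGGCGG, the GC box bound by SP1, and GTAAACA, the core of FOXO sites, on either strand.
Bcl2l11, chr2:128125788-128126037, plus strand: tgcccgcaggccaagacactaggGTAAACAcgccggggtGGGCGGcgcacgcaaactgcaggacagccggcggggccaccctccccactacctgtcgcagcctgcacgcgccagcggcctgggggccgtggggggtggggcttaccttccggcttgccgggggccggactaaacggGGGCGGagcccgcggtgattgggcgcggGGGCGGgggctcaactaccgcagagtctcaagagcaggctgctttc
Bmf, chr2:118549688-118549936, minus strand: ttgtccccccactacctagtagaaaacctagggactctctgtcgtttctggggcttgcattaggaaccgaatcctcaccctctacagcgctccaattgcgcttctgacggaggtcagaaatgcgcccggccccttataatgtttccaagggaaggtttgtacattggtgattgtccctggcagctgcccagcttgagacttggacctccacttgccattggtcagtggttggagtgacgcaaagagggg
Bok, chr1:93685325-93685574, plus strand: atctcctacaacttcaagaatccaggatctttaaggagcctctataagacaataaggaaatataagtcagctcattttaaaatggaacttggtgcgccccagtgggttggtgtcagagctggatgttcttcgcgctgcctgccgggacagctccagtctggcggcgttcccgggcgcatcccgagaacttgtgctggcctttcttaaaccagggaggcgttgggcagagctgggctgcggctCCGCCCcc
Bid, chr6:120916854-120917074, minus strand: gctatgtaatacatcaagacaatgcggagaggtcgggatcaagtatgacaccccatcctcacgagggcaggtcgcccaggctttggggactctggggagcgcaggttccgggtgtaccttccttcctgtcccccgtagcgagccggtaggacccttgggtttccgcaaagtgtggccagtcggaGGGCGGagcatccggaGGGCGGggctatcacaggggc
Bbc3, chr7:16309333-16309582, plus strand: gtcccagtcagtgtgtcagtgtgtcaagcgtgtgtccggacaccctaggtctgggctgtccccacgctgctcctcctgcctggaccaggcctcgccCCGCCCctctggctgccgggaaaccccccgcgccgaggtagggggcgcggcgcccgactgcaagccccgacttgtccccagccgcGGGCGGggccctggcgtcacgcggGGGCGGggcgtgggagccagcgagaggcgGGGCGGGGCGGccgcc
The 2 that rose came first and the 3 that fell after them. In the 250 bases before these starts, *Bcl2l11* held 3 GC boxes and 1 FOXO core, whose first base lay at -227 counted from the start, *Bbc3* held 5 GC boxes, *Bid* 3, 1 of them reaching into exon bases not printed, *Bok* 1 and *Bmf* none. *Bmf* and *Bok* windows were 54.0% and 55.2% G and C, against 63.6% for *Bid*, 72.0% for *Bcl2l11* and 76.4% for *Bbc3*, and the median of all 32851 windows of this length was 52.4%. The core that IRF proteins recognize, AANNGAAA, was found in none of the 14 windows of the 8 genes, while 21.3% of all windows hold it. The longer EICE, bound by IRF4 with PU.1, and the ISRE core, both of which contain these letters, are held by 2.3% and 2.98% of all windows. The FOXO core was in 2 of the 14 windows, 1 of *Bcl2l11* and 1 at another start of *Bbc3*, and is in 3.17% of all windows, and GC boxes were in 9 of the 14 and in 32.7% of all. CACGTG was in 2 of the 14 windows and in 6.02% of all, and TATAAA in none of the 14 and in 12.4% of all. Such matches describe the letters of these windows only, and the 14 windows include more than 1 start of the same gene. The shares of all windows were not matched to the members for G and C content.

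The 10 genes lie on 8 chromosomes, and coordinates are given on GRCm38. *Bcl2l11* (ENSMUSG00000027381) spans 128126038 to 128162547 of chromosome 2 on the plus strand, and *Bmf* (ENSMUSG00000040093) spans 118528757 to 118549687 of the same chromosome on the minus strand. *Bbc3* (ENSMUSG00000002083, 16308393 to 16318205, plus strand) and *Bax* (ENSMUSG00000003873, 45461697 to 45466898, minus strand) lie on chromosome 7. *Bok* (ENSMUSG00000026278) lies on chromosome 1 from 93685660 to 93695764, *Bak1* (ENSMUSG00000057789) on chromosome 17 from 27019810 to 27029009, *Bid* (ENSMUSG00000004446) on chromosome 6 from 120891930 to 120916853 and *Bad* (ENSMUSG00000024959) on chromosome 19 from 6941861 to 6951899. *Pmaip1* (ENSMUSG00000024521) lies on chromosome 18 from 66458533 to 66465565, and *Bik* (ENSMUSG00000016758) on chromosome 15 from 83526862 to 83544634.

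**Figure D1:**
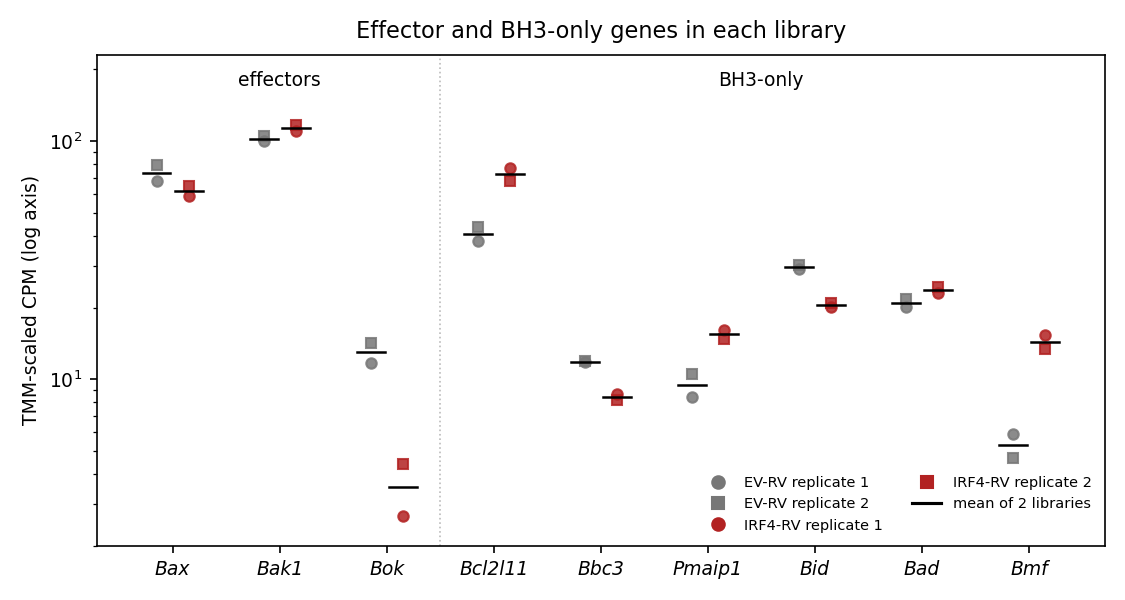
Each point is 1 library, plotted as CPM (counts scaled for library size with TMM factors, log axis) for the 9 members tested, with EV-RV in grey, IRF4-RV in red and a black line at the mean of the 2 libraries. The red points of *Bcl2l11*, *Pmaip1* and *Bmf* sit above the grey ones, those of *Bok*, *Bbc3* and *Bid* below, and *Bax*, *Bak1* and *Bad* shift least. *Bik*, with at most 2 counts, is not drawn.

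To see which members moved, 14637 genes were fitted together after TMM scaling by edgeR's quasi-likelihood test and Benjamini-Hochberg adjustment, with an adjusted p under 0.1 as the cutoff. Over all these genes 29.7% passed, with 16% higher and 13.7% lower under IRF4-RV, a split of 2340 to 2009 that became 1743 to 2867 when libraries were scaled by size alone. Of the 10 members 9 had enough counts to be tested. Of these, 6 passed, 3 higher and 3 lower, against those shares over all genes. The members were chosen with earlier results known, and the share called among genes of like expression level was not computed. The 2 libraries of a group did not overlap those of the other in CPM for any of the 9, but this was so for 61.2% of all genes tested and says little with 2 libraries a group.

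*Bmf*, whose protein binds the dynein light chain DYNLL2 and is released on loss of attachment or survival signals, rose most. It was at 5.87 and 4.69 CPM under EV-RV and at 15.3 and 13.4 CPM under IRF4-RV, from 196, 148, 520 and 490 counts. Both IRF4-RV libraries were well above both EV-RV libraries. Its level thus went from 5.28 ± 0.833 to 14.4 ± 1.34 CPM (SD, n = 2 each), 2.72-fold, with a log2 fold change of 1.44 (standard error, SE, of 0.151, edgeR adjusted p = 0.00047). Of all genes tested, 4.31% had a larger change in either direction.

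*Bcl2l11* encodes BIM, a BH3-only protein that engages all pro-survival members. It was at 37.9 and 43.7 CPM under EV-RV and at 77.2 and 68.0 CPM under IRF4-RV. The gap between the groups was larger than the difference within either. Group means were 40.8 ± 4.05 and 72.6 ± 6.51 CPM (SD, n = 2 each), which is a 1.78-fold rise and a log2 fold change of 0.83 (SE 0.105, edgeR adjusted p = 0.00123). *Pmaip1*, which encodes NOXA, a partner of MCL1, was at 8.38 and 10.5 CPM under EV-RV and at 16.1 and 14.7 CPM under IRF4-RV. Again both IRF4-RV libraries were above both EV-RV libraries. It rose 1.63-fold, with a log2 fold change of 0.71 (SE 0.138, edgeR adjusted p = 0.0089). In the 4 fits that each lacked 1 library, the log2 fold change ranged from 1.30 to 1.61 for *Bmf*, from 0.72 to 0.94 for *Bcl2l11* and from 0.54 to 0.88 for *Pmaip1*, and each passed the cutoff in all 4 fits.

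Other BH3-only genes fell. *Bid*, whose product links death receptors to mitochondria once caspase-8 has cut it, was at 29.0 and 30.2 CPM under EV-RV and at 20.1 and 20.9 CPM under IRF4-RV. Its replicates lay close together in both groups. The change was 1.44-fold down, with a log2 fold change of -0.53 (SE 0.0916, edgeR adjusted p = 0.00523). *Bbc3*, which encodes PUMA, a classical p53 target, was at 11.8 and 11.9 CPM under EV-RV and at 8.67 and 8.21 CPM under IRF4-RV, 1.41-fold lower. Its log2 fold change was -0.49 (SE 0.115, edgeR adjusted p = 0.0194), and of the 6 genes called it had the largest adjusted p. Left out one at a time, the libraries gave values between -0.57 and -0.50 for *Bid* and between -0.55 and -0.45 for *Bbc3*, and each fit passed the cutoff.

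*Bad*, which encodes a protein kept inactive by phosphorylation and binding to 14-3-3 proteins, was at 20.1 and 21.8 CPM under EV-RV and at 23.0 and 24.3 CPM under IRF4-RV. Its log2 fold change was 0.18 (95% interval from -0.05 to 0.40, edgeR adjusted p = 0.25), an interval that holds no change as well as a modest rise. *Bik*, which encodes a BH3-only protein of the endoplasmic reticulum, had 0 and 2 counts in either group. At this depth it was below the floor in each library, and no fold is given.

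Among the effectors, *Bok* alone passed the test. BOK resembles BAX and BAK in sequence, sits largely at the endoplasmic reticulum and is kept low by proteasomal degradation. Its counts were 392 and 447 under EV-RV against 90 and 161 under IRF4-RV, which is 11.7, 14.2, 2.66 and 4.42 CPM. Both IRF4-RV libraries were below both EV-RV libraries, yet in proportion they differed from each other more than the replicates of any other member called. From 12.95 ± 1.72 to 3.54 ± 1.25 CPM (SD, n = 2 each) it fell 3.65-fold, with a log2 fold change of -1.87 (SE 0.228, edgeR adjusted p = 0.00107). Only 2.47% of all genes tested had a larger change. The higher of the 2 IRF4-RV values came from the library with the most stromal transcripts, whose part in this value was not tested. Without that library the log2 fold change was -2.28. Over the 4 fits without 1 library it ranged from -2.28 to -1.57, and each passed the cutoff.

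*Bax* was at 67.9 and 79.6 CPM under EV-RV and at 58.7 and 64.9 CPM under IRF4-RV. The EV-RV libraries were further from each other than the nearest libraries of the 2 groups were. Its log2 fold change was -0.25 (95% interval from -0.49 to -0.02, edgeR adjusted p = 0.123), which missed the cutoff. Without EV-RV replicate 1 it was -0.37 and passed, with an edgeR adjusted p of 0.0395, and in the 3 other fits without 1 library the adjusted p ran up to 0.452. *Bak1* was at 99.9 and 105 CPM under EV-RV and at 111 and 116 CPM under IRF4-RV. The difference was small beside the level, with a log2 fold change of 0.15 (95% interval from -0.03 to 0.33, edgeR adjusted p = 0.213).

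**Figure D2:**
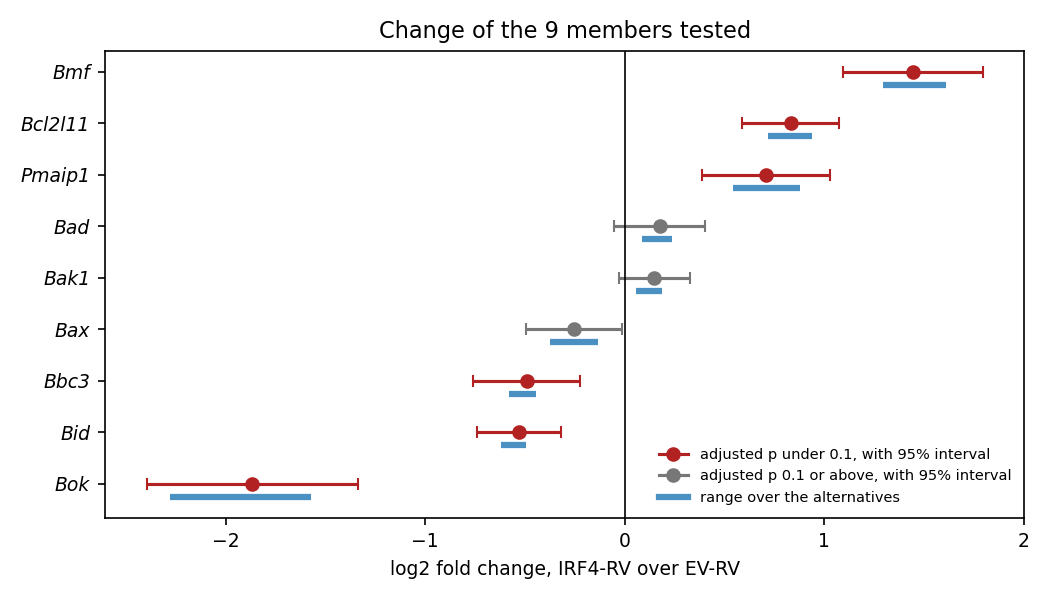
Points give the log2 fold change of IRF4-RV over EV-RV for each of the 9 members tested, with bars for the 95% interval, in red where the adjusted p was under 0.1. Blue bars give the range over 12 alternatives, and none crosses 0: *Bmf* stays between 1.30 and 1.61 and *Bok* between -2.28 and -1.57.

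Some members share exon sequence with a neighboring gene, and the counting does not say how such reads were treated. *Bak1* overlaps *Ggnbp1* on the opposite strand, but its identifiers held at most 3 counts in any library, and *Gm45808*, which overlaps *Bax* on the same strand, had 0. *Bid* shares 628 bases with *Bcl2l13* on the opposite strand, whose log2 fold change was 0.02, and *Bad* shares 524 bases with *Gpr137* on the opposite strand, whose log2 fold change was -0.26 (edgeR adjusted p = 0.246). For *Bcl2l11*, *Bmf*, *Pmaip1*, *Bok* and *Bbc3* no overlapping gene was annotated.

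Levels of different genes were compared per length, as CPM per kb of annotated exon. With EV-RV, *Bax* and *Bak1* stood far above the others at 46.8 ± 5.29 and 42.6 ± 1.49 CPM per kb (SD, n = 2 each), and their ranges overlapped. *Bid* (8.33 CPM per kb) and *Bad* (8.19 CPM per kb) came next, also with overlapping ranges, followed by *Bok* (7.04 CPM per kb), *Bbc3* (5.58 CPM per kb), *Bcl2l11* (5.08 CPM per kb), *Pmaip1* (3.46 CPM per kb) and *Bmf* (1.01 CPM per kb), whose ranges were separate. *Bik* was last. With IRF4-RV the effectors *Bak1* and *Bax* still led, at 47.2 and 39.2 CPM per kb. The order below them changed: *Bad* (9.25 CPM per kb) and *Bcl2l11* (9.04 CPM per kb) had overlapping ranges, as had *Bid* (5.77 CPM per kb) and *Pmaip1* (5.65 CPM per kb), and *Bbc3* (3.97 CPM per kb), *Bmf* (2.74 CPM per kb) and *Bok* (1.92 CPM per kb) followed. *Bcl2l11* moved from rank 7 to rank 4 and *Bok* from rank 5 to rank 9. With the longest coding transcript as the length, these ranks were 6 and 4 for *Bcl2l11* and 5 and 9 for *Bok*, and *Bax* stayed ahead of *Bak1* under IRF4-RV, so the order of close neighbors depends on the length used.

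Summed per length, the 7 BH3-only genes gave 30.5 and 32.9 CPM per kb under EV-RV and 37.2 and 35.7 CPM per kb under IRF4-RV. The makeup of this sum differed more than its size. *Bcl2l11* gave 15.5% and 16.5% of it under EV-RV and 25.9% and 23.7% under IRF4-RV, while *Bid* went from 26.8% and 25.9% to 15.2% and 16.5%. *Bmf* made up 3.67% and 2.72% under EV-RV and 7.86% and 7.17% under IRF4-RV. The share of *Bad* was 25.8% and 25.9% under EV-RV and 24.2% and 26.6% under IRF4-RV, with overlapping groups. The 3 effectors summed to 90.9 and 101.9 CPM per kb under EV-RV and to 84.7 and 92.0 CPM per kb under IRF4-RV, so that these groups overlapped. *Bok* supplied 7.01% and 7.56% of the effector sum under EV-RV and 1.70% and 2.61% under IRF4-RV.

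**Figure D3:**
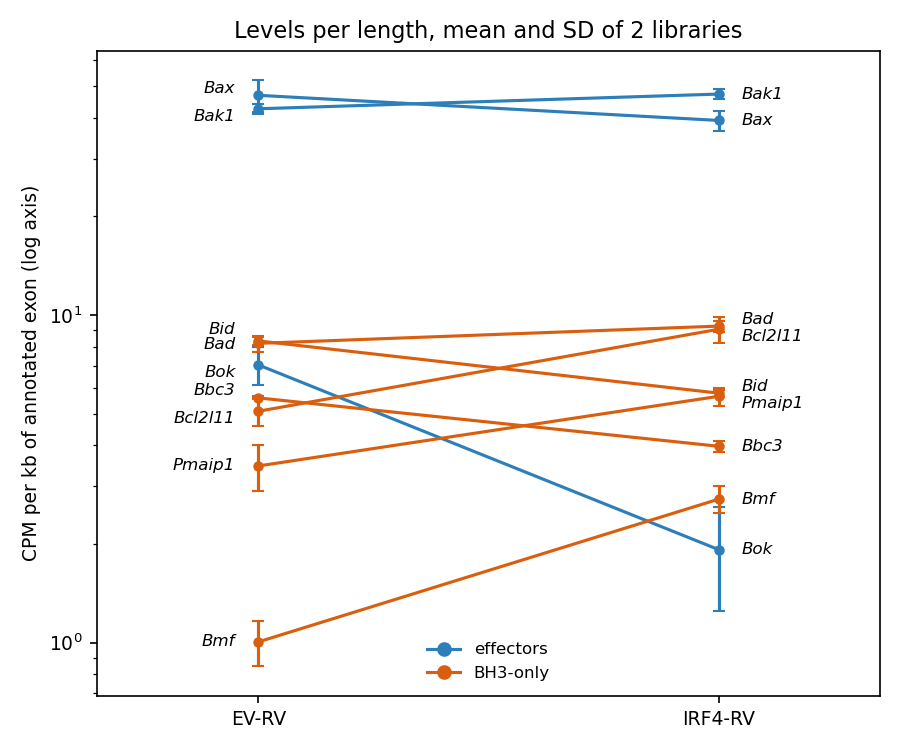
Mean levels in CPM per kb of annotated exon (log axis) are joined between EV-RV and IRF4-RV for 9 members, with error bars for the SD of 2 libraries, effectors in blue and BH3-only genes in orange. *Bax* and *Bak1* stay between 39.2 and 47.2 CPM per kb, *Bok* drops from 7.04 to 1.92 and *Bmf* climbs from 1.01 to 2.74.

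Ratios of counts within a library do not depend on how libraries are scaled to each other. Such ratios are not corrected for gene length, so they compare the groups and do not rank the 2 genes by level. They were computed for 12 pairs, and since 2 libraries against 2 allow no small p in an exact permutation test, they are given without one. There were 1.31 and 1.45 *Bcl2l11* counts for each *Bid* count under EV-RV and 3.84 and 3.26 under IRF4-RV. The ratio of *Bcl2l11* to *Bbc3* went from 3.22 and 3.66 to 8.90 and 8.29, and that of *Pmaip1* to *Bbc3* from 0.712 and 0.881 to 1.86 and 1.80. In each of these 3 pairs both IRF4-RV libraries were above both EV-RV libraries. That follows from the calls on single genes, upward for the numerators and downward for the denominators, and is no separate evidence. *Bmf* to *Bid* went from 0.203 and 0.155 to 0.762 and 0.645. *Bmf* to *Bcl2l11* was 0.155 and 0.107 under EV-RV and 0.199 and 0.198 under IRF4-RV. *Pmaip1* to *Bcl2l11* shifted little, from 0.221 and 0.241 to 0.209 and 0.217. Among effectors, *Bax* to *Bak1* was 0.679 and 0.759 under EV-RV and 0.530 and 0.557 under IRF4-RV, and *Bok* to *Bak1* was 0.117 and 0.135 against 0.0240 and 0.0379.

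The same ratios were formed against pro-survival genes. *Bcl2l11* counts per *Bcl2* count were 1.40 and 1.87 under EV-RV and 3.95 and 3.97 under IRF4-RV. Against *Bcl2l1*, which encodes BCL-XL, they were 0.980 and 1.03 under EV-RV and 1.95 and 1.75 under IRF4-RV, and against *Mcl1* they were 0.213 and 0.247 under EV-RV and 0.361 and 0.327 under IRF4-RV. *Pmaip1* counts per *Mcl1* count, 0.0472 and 0.0595 under EV-RV, were 0.0753 and 0.0709 under IRF4-RV. In each of these pairs both IRF4-RV libraries were above both EV-RV libraries, while the size of the shift differed with the partner. The numerators had been called higher themselves, so these ratios are no separate evidence.

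**Figure D4:**
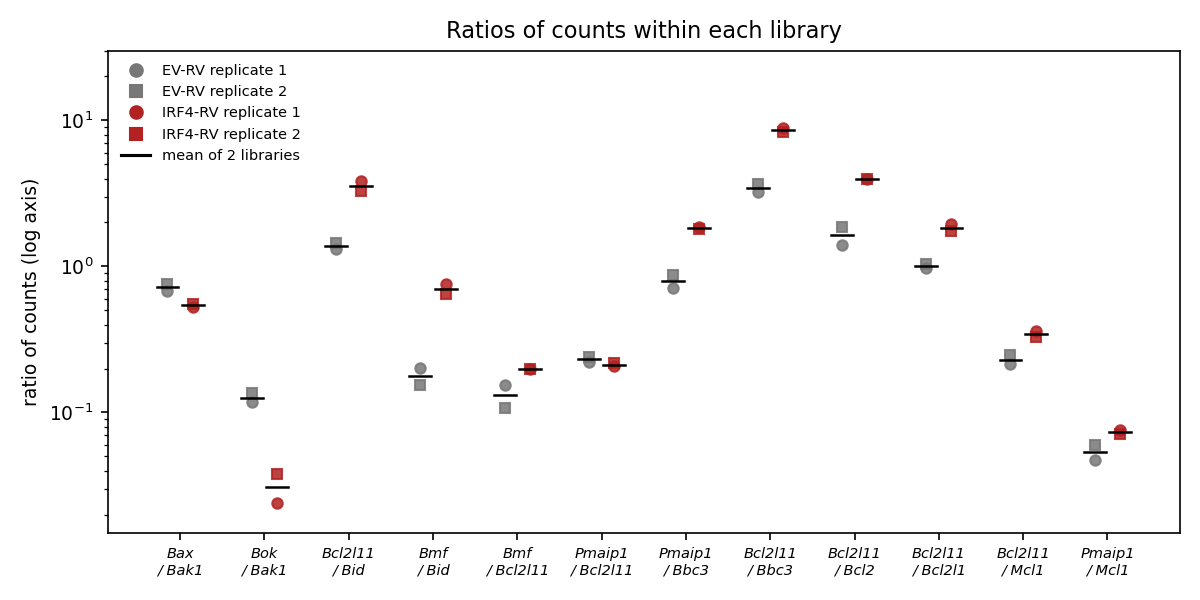
Ratios of counts of 2 genes within 1 library (log axis), 1 point per library with EV-RV in grey, IRF4-RV in red and black lines at the mean of 2 libraries. *Bcl2l11* over *Bcl2* goes from 1.40 and 1.87 to 3.95 and 3.97, *Bcl2l11* over *Bid* from 1.31 and 1.45 to 3.84 and 3.26, and *Bok* over *Bak1* drops from 0.117 and 0.135 to 0.0240 and 0.0379.

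The genes around the members were read from the same fit, in 6 lists of 85 genes, of which 77 were tested. Of these, 23 were higher and 16 lower under IRF4-RV, which is 50.6% called against 29.7% of all genes tested. The median log2 fold change was -0.01, as against 0.01 over all genes tested. The lists were chosen with earlier results known, and the share called among genes of like expression level was not computed. When libraries were scaled by size alone, 14 of the 77 genes were higher and 25 lower. Without EV-RV replicate 1 there were 14 higher genes, and without IRF4-RV replicate 1 there were 12 higher genes and 24 called in all.

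Of 8 anti-apoptotic members of the family 4 were tested, 3 of which passed (75%), and the 4 not tested had at most 2 counts in any library. *Bcl2l2* and *Mcl1* passed upward with log2 fold changes of 0.41 and 0.25, *Bcl2* passed downward with -0.46, and *Bcl2l1* was at -0.04 (edgeR adjusted p = 0.773). The call on *Bcl2l2* was lost in each fit without 1 library, that on *Mcl1* without either IRF4-RV library, and that on *Bcl2* without EV-RV replicate 1. Of 9 further relatives 7 were tested, with 3 higher and 1 lower (57.1% called). These were *Bcl2l14* with a log2 fold change of 1.82, from 4 and 7 to 17 and 26 counts, the mitophagy receptor *Bnip3l* with 0.31, *Bnip2* with 0.23 and *Bnip3* with -0.29. Each of these 4 calls was lost in at least 2 of the 4 fits without 1 library, *Bnip3* in all 4.

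Of 13 genes whose products bind or gate the members, 1 was higher and 2 lower, with a median of -0.05, and the 23.1% called lay below the 29.7% of all genes. *Ywhaq*, a 14-3-3 protein, was called at 0.25, and the channels *Vdac1* and *Vdac2*, the second of which holds BAK, at -0.22 and -0.25. None of the 3 calls was made without IRF4-RV replicate 1 or without IRF4-RV replicate 2. The light chains *Dynll1* and *Dynll2*, which tether BIM and BMF, were at 0.05 and -0.16 without passing the test (edgeR adjusted p = 0.789 and 0.201), chosen here after their values were seen.

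Of 18 genes of the apoptosome and caspases, 9 were higher and 3 lower, with a median of 0.20, and 66.7% were called against 29.7% of all genes. The list also holds caspases that act before the pore and inhibitors of apoptosis, so the count mixes opposing roles. *Birc3*, an inhibitor of apoptosis, rose by 0.78, from 408 and 379 to 749 and 711 counts. *Diablo*, which antagonizes inhibitors of apoptosis, was at 0.58, a call lost without EV-RV replicate 1 and without IRF4-RV replicate 2. *Endog*, a mitochondrial nuclease, *Htra2*, a mitochondrial protease, and *Cycs*, which encodes cytochrome c, fell by 1.22, 0.93 and 0.47. Calls on *Birc3*, *Endog*, *Htra2* and *Cycs* were made in each fit without 1 library. *Diablo*, *Htra2* and *Endog* share 40.9%, 43.7% and 35.7% of their exon bases with other genes, so their counts are uncertain.

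Of 16 genes of the p53 and FOXO inputs 15 were tested, with 5 higher and 3 lower (53.3% called). *Foxo1* rose by 1.10 and *Foxo3* by 0.54 on the log2 scale, from 1009 and 943 to 2282 and 2227 counts and from 1177 and 1086 to 1873 and 1686 counts. FOXO factors are known to activate *Bcl2l11* and *Bbc3*, of which the first rose and the second fell here. *Trp53inp1*, a p53 target, rose by 2.36, while the p53 targets *Phlda3* and *Aen* fell by 0.85 and 0.40, *E2f1* fell by 0.37 and *Trp53* itself was at -0.07 (edgeR adjusted p = 0.551). *Mdm2* and *Mdm4* were also called higher, at 0.295 and 0.302 (edgeR adjusted p = 0.0444 and 0.0482). Both calls were lost when libraries were scaled by size alone. Genes called on this list thus went both ways, and p53 targets were also among the genes that did not pass. A part of p53 or of FOXO factors in these changes was not tested. The calls on *Phlda3* and *E2f1* were lost without EV-RV replicate 2 and without IRF4-RV replicate 1, respectively. Over all alternatives the log2 fold change of *Phlda3* ran from -1.34 to -0.51.

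Of 21 stress and kinase genes 20 were tested, with 3 higher and 6 lower (45% called). *Chac1* and *Trib3*, both induced by ATF4 in the integrated stress response, fell by 1.39 and 1.25, from 72 and 89 to 27 and 40 counts and from 127 and 173 to 61 and 76 counts. *Mapk8*, which encodes the stress kinase JNK1, fell by 0.86. *Rps6ka1*, which encodes RSK1, *Pim2* and *Akt2*, kinases that phosphorylate BAD among other proteins, were higher by 0.53, 0.40 and 0.24. Other kinases of the same families did not follow, as *Pim3* and *Pim1* fell by 0.52 and 0.39, both called in each fit without 1 library, and *Akt1* was at -0.15 (edgeR adjusted p = 0.171). The call on *Chac1* was lost without EV-RV replicate 2, that on *Pim2* without EV-RV replicate 1 or IRF4-RV replicate 1, and that on *Akt2* in 3 of the 4 fits without 1 library, while *Trib3*, *Mapk8* and *Rps6ka1* were called in all 4.

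**Figure D5:**
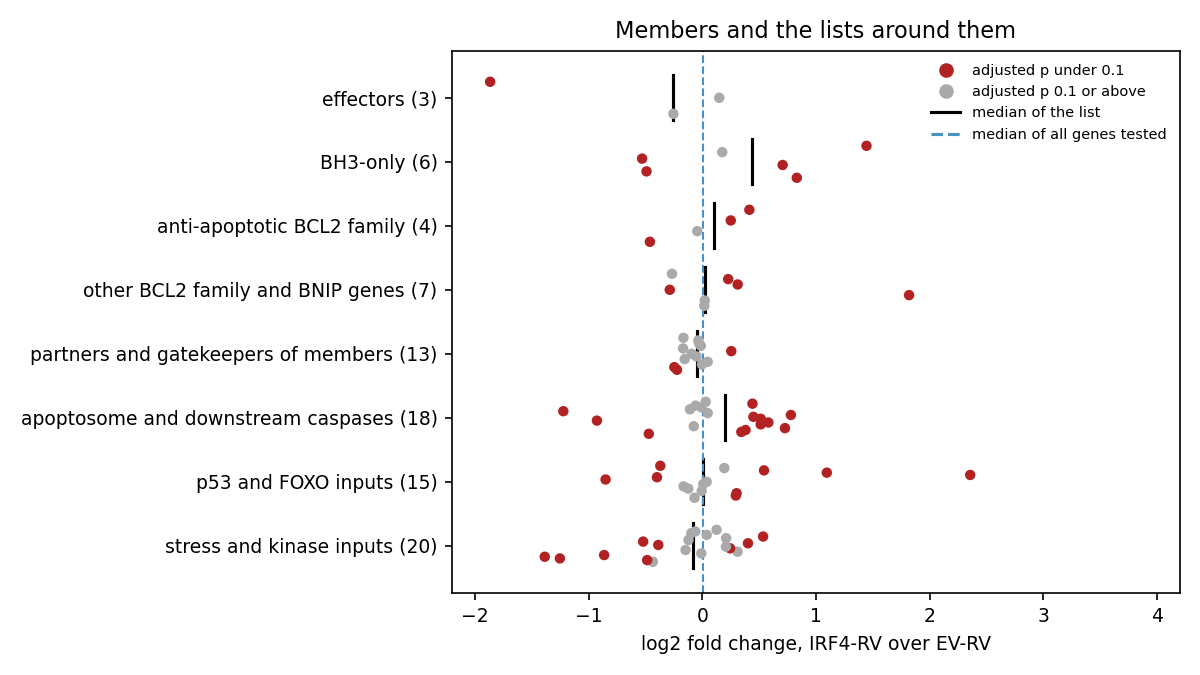
Each point is 1 tested gene, placed by its log2 fold change of IRF4-RV over EV-RV, in rows for the 2 groups of members and the 6 lists around them, with the number tested in brackets. Red points passed an adjusted p of 0.1, black lines mark list medians, from -0.25 for the effectors to 0.44 for the BH3-only genes, and the dashed line marks the median of all genes at 0.01.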

How the data were processed

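Counts from bulk RNAseq of 4 T8 libraries were used, 2 for each retrovirus, grouped by the sample titles. The authors used STAR 2.4.0j for alignment to GRCm38 and deposited raw counts per Ensembl gene from featureCounts. Settings for strand and for multiply aligned reads are not given in the sources used here. Of 55359 identifiers, 52083 were matched to GENCODE M21, which gave symbols, coordinates and exon lengths, and the other 3276 held 0.203% to 0.486% of the counts of a library.

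Genes passing filterByExpr were tested in R 4.3.3 with edgeR 4.0.16 (TMM factors, quasi-likelihood F test, Benjamini-Hochberg over all genes tested, FDR of 0.1), with condition as the only term. P-values weigh the difference between groups against the spread between these libraries, which is estimated in part across genes. CPM use library sizes after TMM, except for the floor. Folds come from the fit, and 95% intervals from its standard errors. Replicates were described as biological and were treated as separate samples. A chi-square per gene of 15.5 and 14.3, scaled by total counts, put them apart beyond counting noise but cannot show separate cultures. The fit was tested on simulated data. Alternatives were DESeq2 1.42.0, limma 3.58.1 with voom, DESeq2's size factors, library size only, other filters, the replicate block, an FDR of 0.05 and leaving out each library.

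The members and lists were chosen with earlier results of these data known. All members are named, and of each list at most the 3 largest rises and the 3 largest falls among genes called (1 of these is not reported here), while *Akt1*, *Bcl2l1*, *Dynll1*, *Dynll2*, *Mdm2*, *Mdm4*, *Pim1*, *Pim3* and *Trp53* were named outside this rule after their values were seen. Upstream sequences are from RefSeq (GRCm38.p6), at the start nearest to the GENCODE gene start.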

Additional observations from a re-analysis of the deposited data

How the results depend on the processing

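The 6 members called kept their direction and their side of the cutoff in each of 12 alternatives, and *Bad* stayed uncalled in all 12. *Bax* was called in 5 of them: -0.34 with library size only (edgeR adjusted p = 0.036), -0.25 with all genes with at least 1 count (0.074), -0.27 with a mean of at least 50 counts (0.0784), -0.25 with the replicate block (0.000897) and -0.37 without EV-RV replicate 1 (0.0395). *Bak1* was called with the replicate block alone, at 0.15 (edgeR adjusted p = 0.052). No member turned its direction. The replicate numbers come from the labels, and nothing there says that they mark shared cultures. Across genes, deviations of same-numbered libraries had a Pearson's r of 0.26. With the replicate block 6394 genes, 8 members and 50 pathway genes were called, against 4349, 6 and 39 without it.

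Without 1 library, 6 to 7 members and 24 to 30 pathway genes were called, 12 to 19 of them higher. With library size only, 14 pathway genes were higher and 25 lower, with the calls on *Mcl1*, *Bcl2l2*, *Bnip3l*, *Bnip2*, *Ywhaq*, *Diablo*, *Mdm2*, *Mdm4* and *Akt2* lost, and 37.8% of all called genes were higher, against 53.8% with TMM. The cause was not tested. With 2 libraries per group, the width of the 95% intervals limits what can be said of *Bax*, *Bak1* and *Bad*, and depth limits *Bik* only.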
